A study of Saccharomyces cerevisiae with 12 samples.

Results

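The autophagy-related (ATG) genes of budding yeast, Saccharomyces cerevisiae, encode the machinery that builds the autophagosome, delivers it to the vacuole and breaks down its content. They were taken by systematic identifier, and all 37 were found among the 7127 features of the count table. The list holds the numbered ATG genes and VPS30 and SNX4, which carry older names for members of the same pathway. It was grouped into 7 steps: initiation, the phosphatidylinositol 3-kinase complex with its effectors, Atg9 vesicles, conjugation, receptors, sorting nexins with a sterol glucosyltransferase, and the vacuolar end. Of the 37 genes, 36 had enough counts to be tested.

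Transcripts were counted by RNA sequencing in 12 cultures at mid-log phase in complete synthetic medium, 3 in each of 4 groups. The first pair of groups carried an integrated PH-NTT1 construct in a BY29034 background with a QUEEN reporter, and either received 5 mM ATP in the medium for 1 h or was left untreated. The second pair was a wild-type (WT) empty-vector control, again with 5 mM ATP for 1 h or untreated. NTT1 is a nucleotide transporter of Encephalitozoon cuniculi, an intracellular parasite. Only the NTT1 samples are labelled with the reporter, so a strain difference covers transporter and reporter together, and transcripts of the construct itself were not analysed here. The 6 WT samples have a source name each, from BY29034 on, whereas the NTT1 samples share a single background name. The labels do not state whether these names are separate isolates or how many clones of NTT1 were used, or which promoter drives it.

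Autophagy carries cytoplasm, proteins or whole organelles to the vacuole inside a newly made membrane sac. In growing yeast the TORC1 kinase complex holds the Atg1 kinase complex inactive, and nutrient starvation releases it. Transcription is a further level of control: ATG8 and several other ATG genes are known to be held low in rich medium by Ume6 with the Rpd3-Sin3 histone deacetylase, and to be induced by nitrogen starvation. A lower transcript level is not a measure of autophagic flux, which was not assayed. In a bulk culture, a lower level in each cell and fewer cells that express a gene cannot be told apart.

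Levels are given as CPM, the library-scaled count of a gene, normalised by the trimmed mean of M values (TMM). Library totals were 14845855 to 20714804 counts, and the ATG genes together took 0.137% to 0.2% of them. A single untreated WT library stood apart. The summed share of the ATG genes was 0.141% to 0.152% in treated NTT1 and 0.159% to 0.176% in untreated NTT1. It was 0.138% to 0.142% in treated WT, and 0.174%, 0.2% and 0.137% in untreated WT replicates 1, 2 and 3. By this share untreated WT replicate 3 lay with the treated libraries. On the first principal component of all genes tested it lay at 1.81, between the 6 treated libraries at 8.53 to 14.3 and the 3 untreated NTT1 libraries at -9.12 to -6.91, and away from the other untreated WT replicates at -21.5 and -25.5. The label of this library was kept, and counts are given with and without it.

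**Figure D1:**
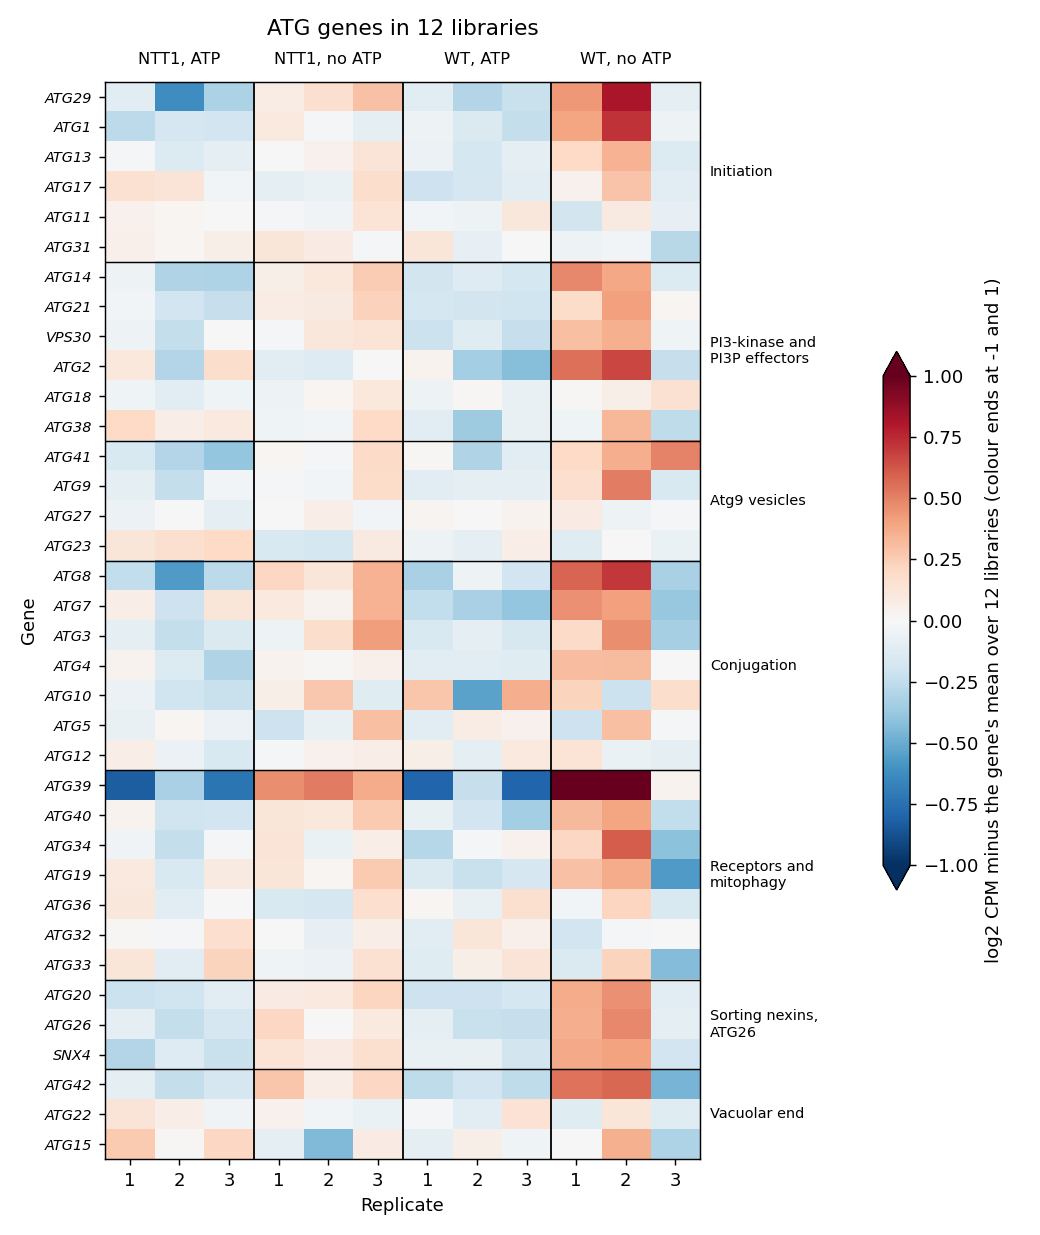
Level of each of the 36 ATG genes tested (rows, by step) in each of the 12 libraries (columns, by group and replicate), as log2 CPM minus the gene's mean over the 12 libraries. Untreated WT replicates 1 and 2 hold the strongest red, untreated NTT1 is paler, and untreated WT replicate 3 resembles the treated libraries for most genes. ATG41 and ATG18 are among the exceptions, each highest in that replicate.

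The levels of the genes spanned a wide range. Per kilobase of coding length, the mean over the 12 libraries ran from 4.94 CPM per kb for ATG2 to 145 CPM per kb for ATG41, with a median of 29.5. ATG27 at 144, ATG33 at 106, ATG8 at 95.8 and ATG42 at 91.3 CPM per kb followed ATG41, and ATG10 at 8.25 and ATG7 at 9.22 were the lowest after ATG2. The 14 genes that were lower with ATP as the mean of the strains had a median level of 25 CPM per kb, and the 22 tested genes that did not pass had 30.2. ATG16, whose product joins the Atg12-Atg5 conjugate, had 1 count in untreated WT replicate 1 and 0 in the other 11 libraries. It did not pass the filter on low counts, and it was also under a floor of 3 counts in each library. The counting settings are not given in the sources used here, so this says only that reads were not assigned to ATG16. No further value is given for it.

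The first question was how extracellular ATP changed the ATG transcripts. None of the 36 genes was higher with ATP at an adjusted p under 0.05 in edgeR's quasi-likelihood test, which is what "called" means here. Of all genes, 2.97% were called higher in NTT1, 5.42% in WT and 11.7% as the mean of the strains. In WT 8 were called lower: ATG1, ATG4, VPS30, ATG20, ATG21, ATG26, ATG39 and ATG41. That is 22.2% of the ATG genes tested, where 7.31% of all 6157 genes tested were called lower. In NTT1 none was called, where 1.49% of all genes were called lower and 4.47% in either direction. An unadjusted p under 0.05 was found there for 9 of the 36 ATG genes and for 1339 of all 6157 genes tested. DESeq2 called 2 ATG genes in NTT1 (ATG39 and ATG41), and its share of all genes is not given here. The mean of the strains, the effect of ATP averaged over both in the same fit, gave 14 ATG genes lower, or 38.9%, against 12.4% of all genes. These were the 8 above with ATG8, ATG14, SNX4, ATG29, ATG40 and ATG42.

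The direction was shared by most of the list, called or not. The median log2 fold change over the 36 ATG genes was -0.15 in NTT1 and -0.27 in WT, while over all genes tested both medians were within 0.01 of 0. The change was negative for 27 of 36 in NTT1 and for 26 of 36 in WT. All 3 treated libraries were below all 3 untreated ones for 14 ATG genes in NTT1, or 38.9%, where 17.7% of all genes did so, and for 7 in WT, or 19.4%, against 13.7%. ATG20, ATG21, ATG29, ATG39 and ATG41 did so in both strains, or 13.9% against 7.1% of all genes. The sizes were small: apart from ATG39 every fitted change lay between -0.65 and 0.29 on the log2 scale.

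The counts depended on the libraries used. Untreated WT replicate 3 was picked out partly by its low ATG share. Calls without it, here and below, follow in part from that choice and are not independent evidence about the ATG genes. Without untreated WT replicate 3 the fit called 22 ATG genes lower in WT (17.4% of all genes), 10 in NTT1 (7.41%) and 21 as the mean of strains (20%). All 14 genes listed above were among those 22. The 6 NTT1 libraries fitted alone, which do not involve that library at all, called 9 ATG genes lower where 6.45% of all genes were. These 9, ATG8, ATG20, ATG21, SNX4, ATG26, ATG29, ATG39, ATG41 and ATG42, were all among the 14. Both of these fits share libraries with the fit that gave the 14, so the overlaps are not separate evidence. The 6 WT libraries fitted alone called 0 of 36, where 0.311% of all genes were called. Leaving out WT libraries other than that replicate left 0 or 1 ATG gene called in WT, 0 without treated replicate 3 and 1 without each of the other 4, and leaving out an NTT1 library left 4 to 6. The mean of strains had 9 called without untreated WT replicate 1 or treated WT replicate 3. Shares of all genes in the fits that leave out another library are not given here, so those counts describe the ATG genes only.

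**Figure D2:**
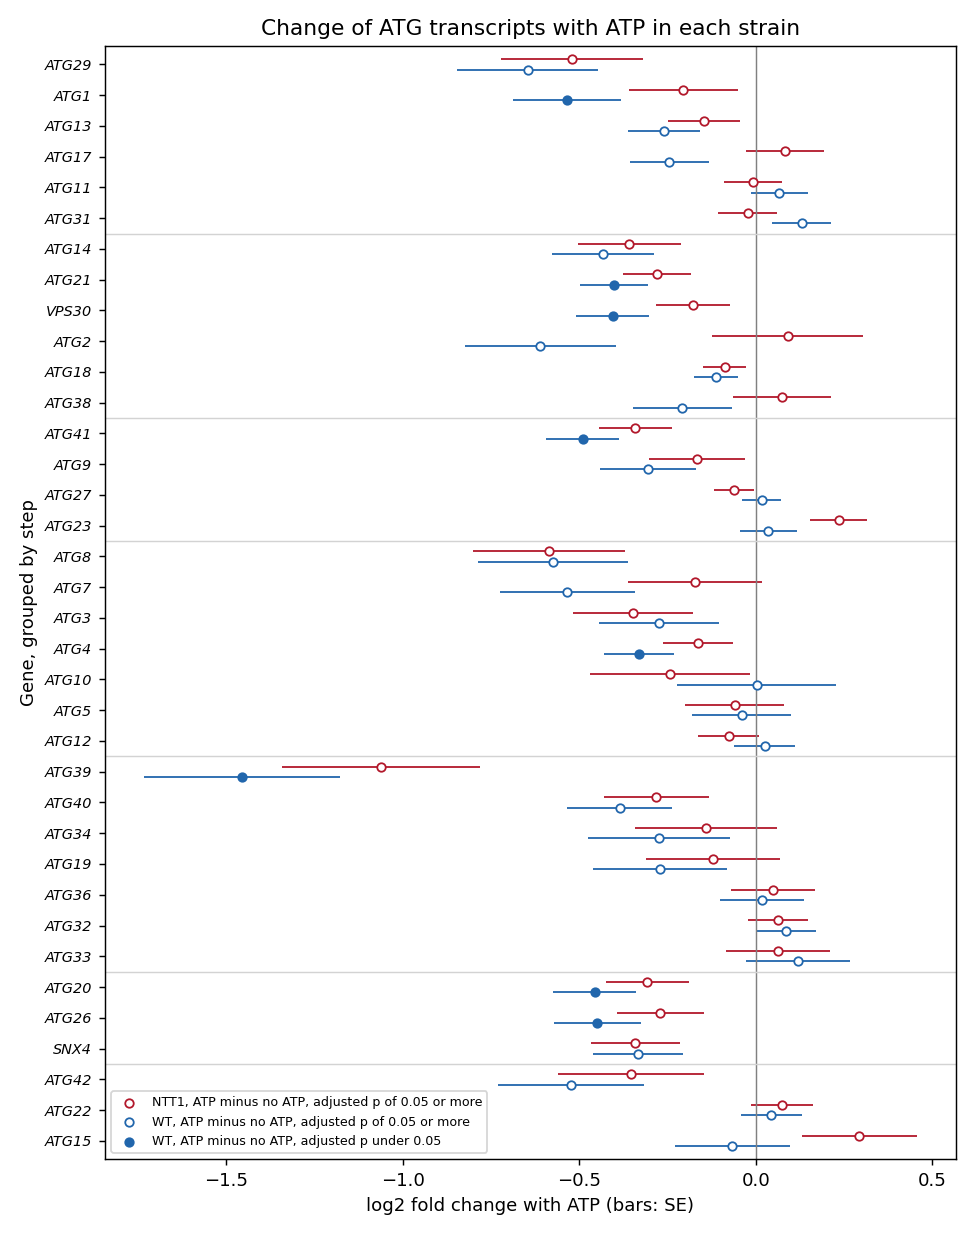
Fitted log2 fold change with ATP for each ATG gene tested, NTT1 in red above WT in blue, with bars of 1 standard error (SE) and filled points for an adjusted p under 0.05. Most points lie left of 0, ATG39 lies farthest left at -1.06 in NTT1 and -1.46 in WT, and filled points occur in WT and not in NTT1.

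To describe what the ATG genes share beyond expression, 3 short DNA motifs known from yeast promoters were searched on both strands from 400 to 101 bases before each start codon in the R64 genome. They were the stress response element AGGGG (bound by Msn2 and Msn4), the core of the Ume6 site GGCGGC, and GATAAG, known as a target of GATA factors. The first was in the window of 15 of the 37 ATG genes, against 23.5% of 6001 windows of all genes. GGCGGC was in 3 of 37 against 6.12%, and GATAAG in 5 of 37 against 13.9%. By response, AGGGG was in 5 of the 14 called lower and 10 of the 22 not called, GGCGGC in 3 of 14 and 0 of 22, and GATAAG in 2 of 14 and 3 of 22. A match is only a description of these letters. Stretches are printed below beside their genes, 5′ to 3′ on the strand of the gene, with the motif in capitals, for genes called lower whose match lies between annotated genes. The matches of ATG4 (AGGGG) and ATG14 (GATAAG), which were also called lower, lie inside the neighbouring genes SQS1 and OPY1 and are not printed.

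In the initiation complex, 2 of 6 genes were called lower as the mean of strains, where 12.4% of all genes were. Each step holds few genes, so the counts by step, here and below, describe single genes and not the step. ATG1 (YGL180W, chrVII:160065-162758, plus strand) encodes the protein kinase that starts autophagy. It had 23.5, 25.2 and 24.8 CPM in treated NTT1, against 30.3, 28.1 and 26.4 CPM in untreated NTT1. In treated WT it had 27.3, 25.6 and 23.9 CPM, against 37.2, 46.8 and 27.3 CPM in untreated WT. The NTT1 groups did not overlap, while in WT only replicates 1 and 2 of the untreated group stood above the treated ones. The log2 fold change was -0.20 ± 0.15 (SE) in NTT1 (adjusted p = 0.461) and -0.53 ± 0.15 in WT (adjusted p = 0.0441). Of the 12 fits that leave out a library, only the one without untreated WT replicate 3 called ATG1 in WT (-0.71 ± 0.10, adjusted p = 0.000342).

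ATG29 (YPL166W, chrXVI:237338-237979, plus strand) encodes part of the Atg17 scaffold with Atg31. It had 12.2, 8.56 and 10.6 CPM in treated NTT1, against 13.9, 14.8 and 16.2 CPM in untreated NTT1. The values were 12.2, 10.7 and 11.3 CPM in treated WT, against 17.8, 23.2 and 12.4 CPM in untreated WT. Neither pair of groups overlapped, although untreated WT replicate 3 was just above the highest treated library. The mean of strains fell by 0.58 on the log2 scale (SE 0.14, adjusted p = 0.0136). Its annotated gene shares 24 bases with SET6, and whether strand was used in counting is not given in the sources used here, so reads in those bases are uncertain. The other 4 genes of the step were not called: ATG13, the regulatory subunit of Atg1, ATG17, the scaffold itself, ATG11, a scaffold of selective autophagy, and ATG31. Their mean-of-strains changes were between -0.20 and 0.05. Without untreated WT replicate 3, ATG13 was called lower as the mean of strains (-0.27 ± 0.04, adjusted p = 0.000771) and ATG17 in WT (-0.34 ± 0.11, adjusted p = 0.0329).

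The lipid kinase complex makes phosphatidylinositol 3-phosphate (PI3P) on the forming membrane, and effectors bind or act with this lipid. Of the 6 genes of this step, complex and effectors together, 3 were called lower as the mean of strains, where 12.4% of all genes were. VPS30 (YPL120W, chrXVI:322071-323744, plus strand), the yeast counterpart of mammalian Beclin 1, carried GGCGGC at chrXVI:321729-321778 (plus strand).
VPS30: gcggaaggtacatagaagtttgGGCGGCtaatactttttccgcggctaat
Its level was 32, 28.1 and 32.9 CPM in treated NTT1, against 32.9, 35.8 and 36.4 CPM in untreated NTT1, and 28.5, 30.4 and 28.1 CPM in treated WT, against 40.8, 42.4 and 32.1 CPM in untreated WT. The WT groups did not overlap, and the NTT1 groups met at 32.9 CPM. In WT the fold change was -0.41 ± 0.10 on the log2 scale (adjusted p = 0.0318).

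ATG14 (YBR128C, chrII:493081-494115, minus strand) directs the kinase to autophagy. It had 14.1, 11.9 and 11.8 CPM in treated NTT1, against 15.2, 15.7 and 17.4 CPM in untreated NTT1, with no overlap. Treated WT had 12.9, 13.4 and 12.9 CPM, against 20.4, 19.1 and 13.3 CPM in untreated WT, where replicate 3 lay inside the treated range. Its mean-of-strains change was -0.40 ± 0.10 (log2, adjusted p = 0.0183). ATG21 (YPL100W, chrXVI:361872-363362, plus strand) encodes a PI3P-binding protein that helps bring Atg8 to the membrane. Its level was 41.9, 37.2 and 36.4 CPM in treated NTT1, against 44.9, 45.3 and 50 CPM in untreated NTT1. In treated WT it was 37.7, 37.4 and 37.1 CPM, against 48.4, 56.7 and 43.1 CPM in untreated WT. The groups did not overlap in either strain, and the log2 fold change was -0.28 ± 0.10 in NTT1 (adjusted p = 0.121) and -0.40 ± 0.10 in WT (adjusted p = 0.0277).

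ATG18, ATG38 and ATG2 were not called with all libraries. ATG18, which binds PI3P together with the lipid transfer protein Atg2, stayed within 45.6 to 54.6 CPM in all libraries. ATG2 had the lowest level per length of the genes tested. It had 24.7, 18.7 and 26 CPM in treated NTT1 against 21.2, 21 and 22.8 CPM in untreated NTT1, and 23.6, 18.1 and 17.1 CPM in treated WT against 33.7, 36.5 and 19.6 CPM in untreated WT. Its changes were 0.09 ± 0.21 in NTT1 and -0.61 ± 0.21 in WT on the log2 scale. This difference between strains, 0.70 ± 0.30, was the greatest of the list and did not pass (adjusted p = 0.829). Without untreated WT replicate 3, ATG2 was called lower in WT (-0.84 ± 0.15, adjusted p = 0.00162) and as the mean of strains (-0.38 ± 0.10, adjusted p = 0.0135).

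Atg9 vesicles supply the first membrane of the autophagosome. ATG41 (YPL250C, chrXVI:74309-74719, minus strand), whose product binds Atg9, was the only gene of 4 in this step that was called with all libraries. As the mean of strains, 12.4% of all genes were called lower. ATG41 had 52.6, 47.6 and 44.7 CPM in treated NTT1, against 59.3, 57.6 and 66.8 CPM in untreated NTT1. In treated WT its level was 58.9, 47.4 and 54 CPM, against 67.4, 75.3 and 82.4 CPM in untreated WT. The groups did not overlap in either strain. Untreated WT replicate 3, which lay with the treated libraries for most ATG genes, had the highest ATG41 level of all 12. ATG41 changed by -0.34 ± 0.10 on the log2 scale in NTT1 (adjusted p = 0.0867), -0.49 ± 0.10 in WT (adjusted p = 0.0183) and -0.42 ± 0.07 as the mean of strains (adjusted p = 0.00308), and the last was called in each of the 12 fits that leave out a library.

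ATG9 itself (YDL149W, chrIV:184925-187918, plus strand), the transmembrane protein of the vesicles, was not called. It had 31.3, 28.4 and 32.8 CPM in treated NTT1 against 32.9, 32.7 and 38 CPM in untreated NTT1, and 31, 31.2 and 31.2 CPM in treated WT against 37.7, 47.6 and 30.1 CPM in untreated WT. Both pairs of groups overlapped, and the mean-of-strains change was -0.24 ± 0.10 (adjusted p = 0.098). Leaving out 1 library moved it between -0.31 and -0.15, and without untreated WT replicate 3 it was called lower (-0.31 ± 0.07, adjusted p = 0.00501). ATG27, which acts in Atg9 traffic, was among the most even genes, at 110 to 124 CPM. ATG23, which acts with it, had 32.1, 33 and 33.9 CPM in treated NTT1 against 26.5, 26.1 and 31.5 CPM in untreated NTT1. It was the only ATG gene with all 3 treated libraries above all untreated ones in either strain, and its adjusted p was 0.119.

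Conjugation attaches the ubiquitin-like protein Atg8 to a lipid of the growing membrane. ATG8 (YBL078C, chrII:80378-80731, minus strand) held a pair of overlapping GGCGGC matches at chrII:80834-80886 (minus strand).
ATG8: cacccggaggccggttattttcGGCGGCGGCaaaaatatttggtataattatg
It had 27.6, 22 and 27.2 CPM in treated NTT1, against 37.8, 35.7 and 41.6 CPM in untreated NTT1. Its level was 26.1, 31.6 and 28.6 CPM in treated WT, against 49.1, 53.5 and 26.1 CPM in untreated WT. The NTT1 groups were well apart, and in WT replicate 3 of the untreated group lay at the bottom of the treated range. The log2 fold change was -0.59 ± 0.22 in NTT1 (adjusted p = 0.143), -0.57 ± 0.21 in WT (adjusted p = 0.0983) and -0.58 ± 0.15 as the mean of strains (adjusted p = 0.0187). In the NTT1 libraries fitted alone it was -0.59 ± 0.10 (adjusted p = 0.00787), and without untreated WT replicate 3 the WT change was -0.83 ± 0.11 (adjusted p = 0.000226).

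ATG4 (YNL223W, chrXIV:227370-228854, plus strand), the protease that trims Atg8 and frees it again, was the other gene called of the 7 tested in this step. As the mean of strains, 12.4% of all genes were called lower. ATG4 had 24.7, 21.9 and 19.6 CPM in treated NTT1, against 24.7, 24.4 and 25 CPM in untreated NTT1. In treated WT it had 22.4, 22.4 and 22.1 CPM, against 29.9, 30.1 and 24.2 CPM in untreated WT. The WT groups did not overlap. The WT change of -0.33 ± 0.10 had an adjusted p of 0.04999, at the threshold, and was called in 2 of the 12 fits that leave out a library. ATG7 (the E1 enzyme), ATG3 (E2 for Atg8) and ATG10 (E2 for Atg12) were not called with all libraries, at mean-of-strains changes of -0.35, -0.31 and -0.12. Without untreated WT replicate 3, ATG7 was called lower at -0.47 ± 0.08 (adjusted p = 0.000955) and ATG3 at -0.41 ± 0.08 (adjusted p = 0.0025), which makes 4 of 7. In that fit 20% of all genes were called lower as the mean of strains. ATG5 and ATG12, which encode the other conjugate, were at -0.05 and -0.03.

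Among the receptors, which select cargo, 2 of 7 genes were called lower as the mean of strains, where 12.4% of all genes were. Without untreated WT replicate 3 the count was 4 of 7, where 20% of all genes were called lower. ATG39 (YLR312C, chrXII:757637-758833, minus strand) is the receptor for the perinuclear endoplasmic reticulum (ER) and the nucleus. Upstream, at chrXII:759057-759171 (minus strand), it held 2 matches of AGGGG, both on the opposite strand, and 1 of GATAAG, likewise.
ATG39: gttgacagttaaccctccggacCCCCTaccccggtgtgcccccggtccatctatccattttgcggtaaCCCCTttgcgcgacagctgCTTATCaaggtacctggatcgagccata
ATG39 had 7.59, 10.8 and 8.1 CPM in treated NTT1, against 18.7, 19.4 and 17.6 CPM in untreated NTT1. It had 7.78, 11.5 and 7.76 CPM in treated WT, against 32.4, 28.3 and 13.9 CPM in untreated WT. The groups did not overlap in either strain, and here untreated WT replicate 3 was between the treated libraries and the other replicates of its group. The log2 fold change was -1.06 ± 0.28 in NTT1 (adjusted p = 0.0569), -1.46 ± 0.28 in WT (adjusted p = 0.0131) and -1.26 ± 0.20 as the mean of strains (adjusted p = 0.00191). It was the strongest change of the list in each strain, and the mean of strains was called in each of the 12 fits that leave out a library. The NTT1 libraries fitted alone gave -1.06 ± 0.14 (adjusted p = 0.00287).

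ATG40 (YOR152C, chrXV:617518-618288, minus strand), the receptor for the cortical ER, changed less. It had 27.8, 23.7 and 23.8 CPM in treated NTT1, against 29.6, 29.3 and 32.8 CPM in untreated NTT1. In treated WT it had 25.8, 23.9 and 21.5 CPM, against 34.1, 35.9 and 22.9 CPM in untreated WT. The NTT1 groups did not overlap and the WT groups did. Its mean-of-strains change of -0.33 ± 0.10 passed (adjusted p = 0.0403), but in 2 of the 12 fits that leave out a library only. ATG32, the receptor of mitochondria, ATG36, that of peroxisomes, and ATG33, an outer mitochondrial membrane protein, were not called and had mean-of-strains changes of 0.07, 0.03 and 0.09. ATG19, the receptor of the cytoplasm-to-vacuole pathway, and the related ATG34 were at -0.20 and -0.21 and not called with all libraries. Without untreated WT replicate 3 both were called lower, at -0.32 ± 0.06 for ATG19 (adjusted p = 0.00157) and -0.32 ± 0.09 for ATG34 (adjusted p = 0.0141). How reads that fit both ATG19 and ATG34 were counted is not given in the sources used here.

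**Figure D3:**
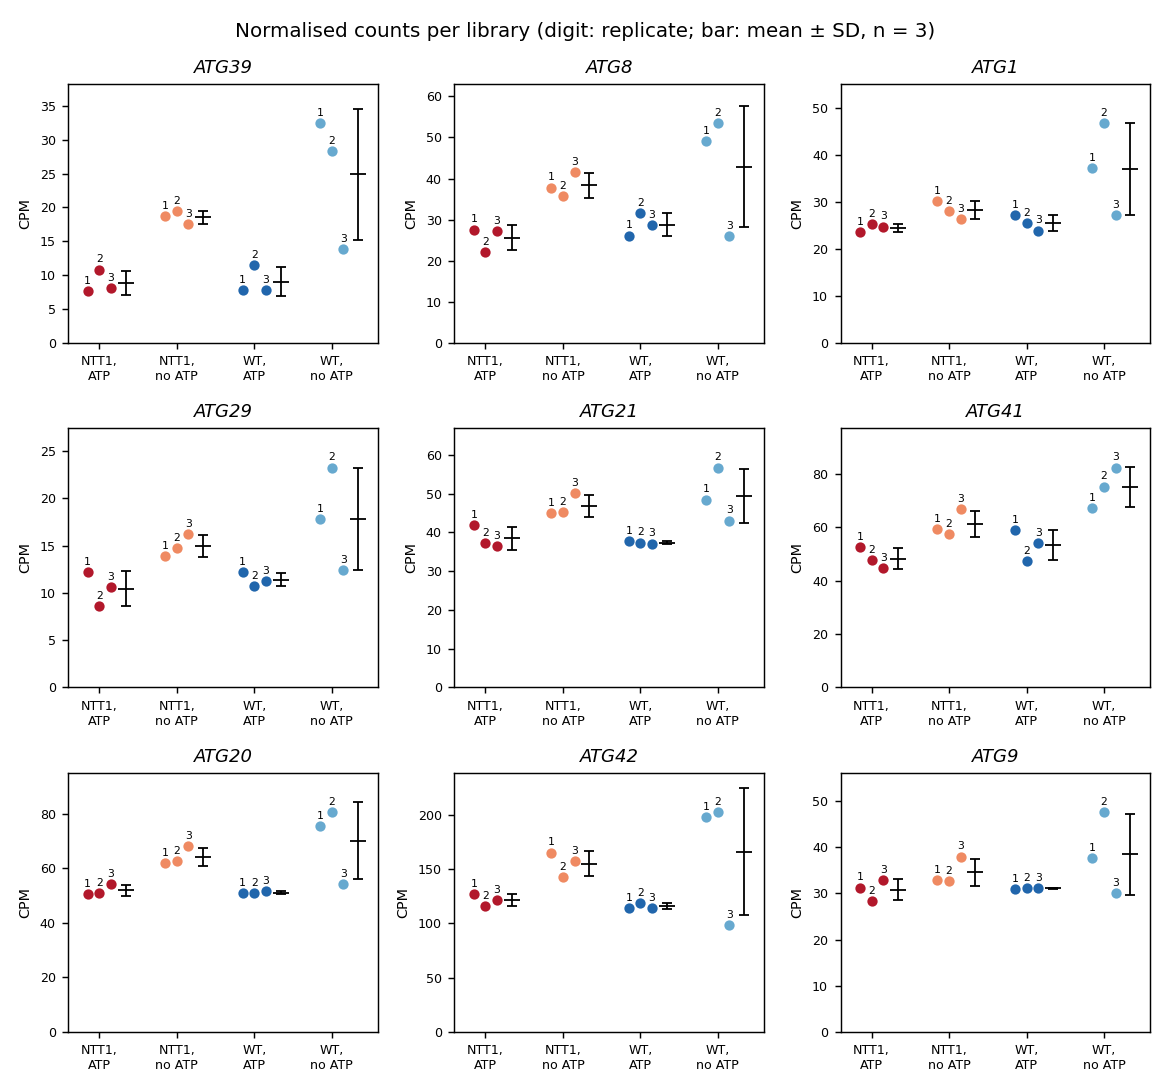
CPM of 9 ATG genes in each library (points, numbered by replicate) with the mean ± SD over 3 replicates (bars) in each group. ATG39 and ATG8 separate treated from untreated NTT1, and in untreated WT replicate 3 lies below replicates 1 and 2 for all but ATG41.

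All 3 genes of the next group were called lower as the mean of strains, where 12.4% of all genes were. SNX4 and ATG20 encode partner sorting nexins that recycle membrane proteins and act in selective autophagy, and ATG26 encodes a sterol glucosyltransferase, whose counterpart in the yeast Komagataella phaffii is needed to degrade peroxisomes. Each held AGGGG, on one strand or the other: ATG20 at chrIV:258670-258718 (minus strand), SNX4 at chrX:378619-378667 (plus strand) and ATG26 at chrXII:534648-534696 (minus strand).
ATG20: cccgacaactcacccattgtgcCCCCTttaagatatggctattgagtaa
SNX4: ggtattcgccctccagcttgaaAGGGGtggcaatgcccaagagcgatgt
ATG26: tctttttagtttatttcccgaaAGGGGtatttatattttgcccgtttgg
AGGGG was no more frequent in the genes called lower than in those not called, as counted above. ATG20 (YDL113C) had 50.6, 51 and 54.3 CPM in treated NTT1, against 62, 62.7 and 68 CPM in untreated NTT1. It had 50.8, 50.8 and 51.7 CPM in treated WT, against 75.6, 80.6 and 54.1 CPM in untreated WT. Neither pair overlapped, and the log2 fold change was -0.31 ± 0.12 in NTT1 (adjusted p = 0.161) and -0.46 ± 0.12 in WT (adjusted p = 0.033).

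SNX4 (YJL036W) had 51.3, 57.3 and 53.9 CPM in treated NTT1, against 68.9, 66.6 and 70.4 CPM in untreated NTT1. Its level was 59.6, 59.6 and 55.3 CPM in treated WT, against 81.9, 83 and 55.1 CPM in untreated WT. ATG26 (YLR189C) had 60.7, 54.7 and 57.4 CPM in treated NTT1, against 74.8, 64.3 and 69.3 CPM in untreated NTT1. For both genes the NTT1 groups did not overlap. In treated WT, ATG26 had 60.4, 55.5 and 55.2 CPM, against 83, 90.2 and 60.4 CPM in untreated WT. In untreated WT, replicates 1 and 2 stood above the treated libraries for both genes and replicate 3 did not. The mean-of-strains change was -0.34 ± 0.09 for SNX4 (adjusted p = 0.0206) and -0.36 ± 0.09 for ATG26 (adjusted p = 0.0137).

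At the vacuolar end, 1 of 3 genes was called, lower as the mean of strains, where 12.4% of all genes were. ATG42 (YBR139W, chrII:515664-517190, plus strand) encodes a vacuolar carboxypeptidase and held GGCGGC at chrII:515501-515550 (plus strand).
ATG42: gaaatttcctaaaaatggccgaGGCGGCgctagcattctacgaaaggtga
It had 127, 116 and 121 CPM in treated NTT1, against 165, 143 and 157 CPM in untreated NTT1, without overlap. In treated WT it had 114, 119 and 114 CPM, against 198, 202 and 98.2 CPM in untreated WT. Replicate 3 of untreated WT was thus the lowest of the 12 libraries for ATG42. With ATP it changed by a log2 fold of -0.35 ± 0.21 in NTT1 (adjusted p = 0.346), -0.52 ± 0.21 in WT (adjusted p = 0.116) and -0.44 ± 0.15 as the mean of strains (adjusted p = 0.0492), a call kept in 1 of the 12 fits that leave out a library. ATG15, the lipase that opens autophagic bodies, and ATG22, which exports amino acids from the vacuole, were not called. ATG15 had 51.8, 43.5 and 49.8 CPM in treated NTT1 against 40.5, 31.9 and 45.8 CPM in untreated NTT1, and ATG22 stayed within 43.8 to 52.9 CPM in all libraries.

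The next question was whether the response to ATP differed with the transporter. Across the 36 genes the fitted changes of the strains, which share no libraries, had a Pearson's r of 0.806, against 0.725 across all genes tested. Genes are not independent replicates, and this is a description only. ATG39 lies far from the other ATG genes and weighs on this r, which was not calculated without it. The change was negative in both strains for 22 of 36, or 61.1%, against 37% of all genes. The interaction, the ATP change in NTT1 minus that in WT, was called for 0 of 36 ATG genes and 0% of all genes. It had an unadjusted p under 0.05 for 1 ATG gene (ATG2) and for 365 of all 6157 genes tested, and DESeq2 called 0 ATG genes. Its median over the ATG genes was 0.12 on the log2 scale, and leaving out 1 library moved it between -0.016 and 0.24, the negative value without untreated WT replicate 2. Without untreated WT replicate 3 the interaction was called higher for ATG42 (0.44 ± 0.09, adjusted p = 0.0452), the only ATG gene called, where 0.68% of all genes were called higher.

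**Figure D4:**
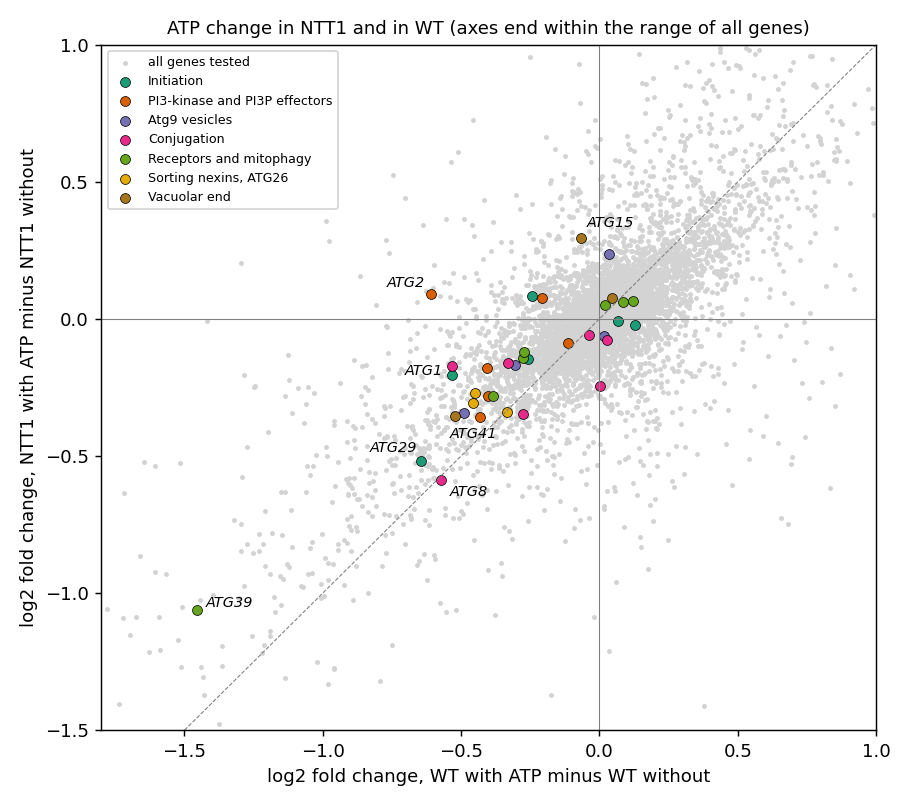
Log2 fold change with ATP in NTT1 (vertical) against that in WT (horizontal) for each ATG gene tested, coloured by step, over all genes tested in grey, with the dashed line of equal change. The ATG genes spread along the diagonal in the lower left, with ATG39 at -1.06 and -1.46, and ATG2 lies off it at 0.09 in NTT1 and -0.61 in WT.

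The strains were also compared directly. With ATP, 0 of 36 ATG genes were called between treated NTT1 and treated WT, where 0.065% of all genes were called. The median log2 fold change was 0.01, and 2 ATG genes, ATG17 and ATG23, had an unadjusted p under 0.05, as did 278 of all 6157 genes tested. Without ATP, 0 of 36 were called between untreated NTT1 and untreated WT, where 0.0487% of all genes were called. The median was -0.08, and again 2 ATG genes, ATG1 and ATG41, had an unadjusted p under 0.05, as did 597 of all 6157 genes tested. DESeq2 called 0 in both comparisons. ATG41 was the only ATG gene with all untreated NTT1 libraries, at 57.6 to 66.8 CPM, below all untreated WT libraries, at 67.4 to 82.4 CPM, a pattern that 5.13% of all genes had.

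The comparison without ATP turned on untreated WT replicate 3. Without it, 8 ATG genes were called lower in untreated NTT1 than in untreated WT, where 5.13% of all genes were called lower: ATG1, ATG2, ATG8, ATG20, SNX4, ATG26, ATG39 and ATG42. The log2 fold change was -0.71 ± 0.17 for ATG39 (adjusted p = 0.0277), -0.57 ± 0.10 for ATG1 (adjusted p = 0.00683) and -0.42 ± 0.11 for ATG8 (adjusted p = 0.0365). Between the treated groups the count stayed at 0 of 36 without that library, where 0.0971% of all genes were called. These contrasts share the untreated NTT1 and untreated WT libraries with the ATP contrasts, so they are not separate evidence about the same genes.

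Beyond the ATG genes, 39 other genes of the pathway and its control were read from a list in 5 roles. As the mean of strains, 4 were called higher with ATP, or 10.3%, against 11.7% of all genes, and 7 lower, or 17.9%, against 12.4%. These shares are near those of all genes, so the values below describe single genes and not the list. Among 12 transcriptional regulators, GAT1, a GATA activator of nitrogen-regulated genes, rose most. It had 45.4, 42.7 and 41.4 CPM in treated NTT1, against 23.1, 14.6 and 18.4 CPM in untreated NTT1, and 36.8, 38 and 33.5 CPM in treated WT, against 24, 30.9 and 18 CPM in untreated WT. Treated and untreated groups did not overlap in either strain. Its log2 fold change was 1.20 ± 0.19 in NTT1 (adjusted p = 0.00596), 0.57 ± 0.18 in WT (adjusted p = 0.0619) and 0.89 ± 0.13 as the mean of strains (adjusted p = 0.00143).

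RPH1, a histone demethylase that represses ATG genes in rich medium, was called higher in NTT1 at 0.51 ± 0.10 and as the mean of strains at 0.42 ± 0.07 (adjusted p = 0.0196 and 0.00258). It had 111, 104 and 113 CPM in treated NTT1, against 77.2, 66.9 and 86 CPM in untreated NTT1. In treated WT it had 108, 103 and 105 CPM, against 74.8, 95.2 and 80.1 CPM in untreated WT. Untreated WT replicate 3 lay within its own group for RPH1. SIN3, of the Rpd3 deacetylase complex, and MSN2, a stress response activator, were also called higher as the mean of strains, at 0.46 and 0.23. MSN4, the partner of MSN2, was called lower at -0.59, and PHO23, a subunit of the same deacetylase complex, at -0.19. UME6 and RPD3 were not called.

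Of 8 genes of the TORC1 kinase complex and its regulators, NPR2, which restrains TORC1, and LST8, a subunit, were called lower as the mean of strains, at -0.25 and -0.15. KOG1, a further subunit, was called higher in NTT1 alone at 0.37 ± 0.08 (adjusted p = 0.0306), and TOR1, the kinase, was called lower in WT alone at -0.27 ± 0.08 (adjusted p = 0.0479). Their interaction was 0.47 ± 0.11 each and did not pass (adjusted p = 0.587). VPS34, the lipid kinase that works with Vps30 and Atg14, was called lower at -0.26, as were VAC8, a vacuolar anchor of the initiation complex, at -0.29 and the fusion protein gene VTI1 at -0.28. Of 7 genes for vacuolar cargo and hydrolases none was called in any contrast, and their mean-of-strains changes lay between -0.21 and 0.15.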

How the data were processed

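The authors deposited raw counts per gene, recognised by whole numbers whose totals differ between libraries. Per the submitters' processing notes, HISAT2 2.0.5, featureCounts 1.5.0, DESeq2 1.20.0 and build R64 were used, with no role or order given. Use of strand and the annotation release are not given in the sources used here. Columns were matched to samples by library name, and groups come from sample titles.

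Tests used edgeR 4.0.16 in R 4.3.3 (quasi-likelihood F-test, TMM, filterByExpr by group), with all 12 libraries in 1 fit with 4 group means. The filter kept 6157 of 7127 features, with 99.99% of counts. Benjamini-Hochberg adjustment ran over those genes, with a threshold of 0.05. SEs are approximate, the fold change divided by the square root of F. Levels per kb use coding lengths, and positions and sequences come from the RefSeq R64 genome and annotation. Genes with few counts are measured less precisely.

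The members, the lists, the steps and the alternatives were chosen with earlier results of these data known. Full values go to members called in any contrast, to the member with the smallest p in each step, and to ATG1, ATG8 and ATG9. ATG2, ATG15 and ATG23 were given in full after their values were seen. Alternatives were RLE and upper-quartile scaling, no filter, a robust spread, a replicate block, DESeq2 1.42.0, fits of the 6 libraries compared, and leaving out each library. On simulated counts for ATP in WT, with 200 of 6157 genes changed by a log2 fold change of 1, 91% were recovered and 1.09% of calls were false. That change is larger than the ATP change fitted for any ATG gene other than ATG39. Recovery of smaller changes was not tested.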

Additional observations from a re-analysis of the deposited data

How the results depend on the processing

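The number of ATG genes called for ATP in NTT1, 0 of 36, became 1 with upper-quartile scaling, 1 with a replicate block, 2 with DESeq2 and 9 when the 6 NTT1 libraries were fitted alone. For ATP in WT the 8 became 5 with the replicate block and 0 in a fit of the 6 WT libraries alone. For the 39 other pathway genes, ATP in NTT1 gave 6 in place of 3 in the 6 libraries alone, and ATP in WT gave 0 in the 6 libraries alone and 9 with DESeq2 in place of 5. The cause of these differences was not tested. Fits of 6 libraries estimate the spread from those 6 libraries alone. The other counts stayed within 1.5 times of the values reported under these 7 alternatives. Apart from the fits of 6 libraries, shares of all genes under these alternatives are not given here.

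Leaving out each of the 12 libraries in turn gave 0 to 10 ATG genes for ATP in NTT1 and 0 to 22 for ATP in WT. It gave 9 to 21 for the mean of strains, 0 to 8 for the strains without ATP, 0 to 0 with ATP and 0 to 1 for the interaction. The upper end of each range other than 0 to 0 came without untreated WT replicate 3. In that fit 7.41% of all genes were called lower for ATP in NTT1, 17.4% in WT and 20% as the mean of strains. For the strains without ATP the share was 5.13%. Shares of all genes in the other fits are not given here. The median log2 fold change of the ATG genes ran from -0.44 to -0.13 in WT, from -0.18 to -0.10 in NTT1, from -0.31 to -0.16 as the mean of strains and from -0.016 (without untreated WT replicate 2) to 0.24 for the interaction, with -0.21 to 0.03 for the strains without ATP. The other pathway genes gave 1 to 9 in NTT1, 0 to 11 in WT and 9 to 14 as the mean of strains. As the mean of strains, ATG39, ATG8, ATG14, ATG20, ATG21, ATG26, ATG29, ATG41 and VPS30 were called in all 12 fits, SNX4 in 9, ATG1 in 4, ATG4 in 3, ATG40 in 2 and ATG42 in 1. For the 15 ATG genes given in full by the rule, no ATP change turned its sign in these fits. The other genes were read only without untreated WT replicate 3, where the ATP change turned negative, uncalled, for ATG36 (-0.0063 as the mean of strains and -0.061 in WT), ATG33 (-0.024 in WT) and ATG12 (-0.016 in WT).

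Replicate numbers are shared between groups, but samples with the same number did not deviate together in every pair. The correlation of their deviations was -0.01, 0.13 and 0.16 between the NTT1 groups and -0.04, 0.10 and 0.09 between the WT groups. Between untreated NTT1 and untreated WT it was 0.311, -0.44 and -0.259, and between the treated groups -0.056, 0.004 and 0.041. The replicate numbers are therefore taken as numbers only. With the replicate block ATG4, VPS30 and ATG20 were not called in WT (adjusted p = 0.0504, 0.0502 and 0.0523), ATG42 was not called as the mean of strains (0.0652), and ATG39 was called in NTT1 (0.036), all by edgeR.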
